A study of Mus musculus with 8 samples.

Results

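The 38 genes described here encode RNA-binding proteins that regulate splicing, other than ESRP1 and ESRP2, and they were taken as a named list from the 21690 genes of an epidermal expression table. All 38 were matched by gene identifier, and all 38 passed the filter of a mean of at least 1 TPM (a length-normalized share of all transcripts in a library) that 10682 genes passed. The list held 12 SR and SR-like genes, 12 hnRNP and PTB genes, 11 other sequence-specific regulators and 3 genes of 3′ splice site recognition. The study asked how gene expression and alternative splicing in epidermis respond to ESRP loss, and the comparison here is whether these other regulators differed in level or in splicing between the groups.

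RNA came from the back-skin epidermis of mouse pups at postnatal day 5, in 4 control and 4 experimental libraries. Control pups were Esrp1flox/flox; Esrp2-/- with neither transgene in their genotype label. Experimental pups were K5rTA tetOCre Esrp1flox/flox; Esrp2-/-, in which keratin 5 sequences drive a doxycycline-dependent activator of Cre in basal keratinocytes. From embryonic day 17 the mothers of all pups were fed doxycycline chow, so the groups shared the Esrp2 null alleles and the drug and differed in the transgenes and the deletion of Esrp1. The labels call the samples of a group biological replicates and name no litter.

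Splicing regulators decide which exons enter a messenger RNA by binding short motifs in exons and introns. SR proteins mostly bind exons and help the spliceosome to recognise them, hnRNP proteins often oppose exon use or act by position, and tissue-restricted factors such as the ESRP, RBFOX, MBNL and CELF families add cell-type patterns on top. ESRP1 and ESRP2 are the epithelial members of this system. Many SR and hnRNP genes also control their own level through exons that send the transcript to nonsense-mediated decay.

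Each library held 10401 to 11640 genes above 1 TPM, and entries at or under 1 TPM were listed at 0. TPM keeps no read depth, so the depth was unknown. Esrp1, the targeted gene, read 135, 131, 133 and 162 TPM in control libraries 1 to 4 and 65.0, 49.8, 75.6 and 66.5 TPM in experimental libraries 1 to 4. The groups did not overlap (log2 change -1.13, SE 0.17, limma adjusted p = 0.0112). Esrp2 read 3.07, 0, 2.14 and 3.31 TPM across the controls and 4.98, 3.25, 5.28 and 4.22 TPM in experimental libraries, with overlapping groups (limma adjusted p = 0.176). Krt10, a suprabasal keratin, lay between 10269 and 20967 TPM across the controls and between 20206 and 29564 TPM in experimental libraries. Of 5 endothelial genes, 4 were listed at 0 in all 8 libraries, Pecam1 among them, and the 5 summed to 2.11 TPM in control library 1. Genes of other cell types were present, and erythroid genes summed to 9583 TPM in control library 2. The control libraries differed widely among themselves in basal keratinocyte and cell cycle genes, and these values stand beside the results below. Mitochondrially encoded genes took 18.2% and 17.5% of the TPM in 2 experimental libraries, numbers 2 and 4, and 10.6% to 12.6% in the rest. The 10 most abundant genes took 17.8% to 18.6% of the TPM across the controls and 22.8% to 25.2% in experimental libraries.

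None of the 38 splicing regulators changed in level between the groups by the test. No member was higher and no member was lower at a limma adjusted p under 0.05 (background over all 10682 genes, 0.917% higher and 1.54% lower, together 2.46%). The lowest adjusted p among the members was 0.201, for Tra2a, and Tra2a was also the only member with an unadjusted p under 0.05, a level that 16.9% of all genes reached. The groups overlapped for all 38 members, whereas they did not overlap for 12.6% of all genes tested. In the authors' deposited table of lower expressed genes, 0 of the 38 members appeared among its 748 genes (background 4.72% of the genes tested here). Log2 changes of the members ran from -0.51 to 0.10 with a median of -0.22, beside a median of -0.18 over all genes, and 34 of 38 were below 0, beside 74.5% of all genes. The absence of a call does not show equal levels. On the log2(TPM + 1) scale the 95% intervals of 35 members lay within a 2-fold change in either direction. The widest limits on that scale were -1.12 for Hnrnpa1 and 0.73 for U2af1. That scale understates fold changes of low members such as Mbnl3 and Qk, so these intervals do not bound their TPM within 2-fold. In bulk tissue, fewer cells of a type and less RNA per cell cannot be told apart.

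**Figure D1:**
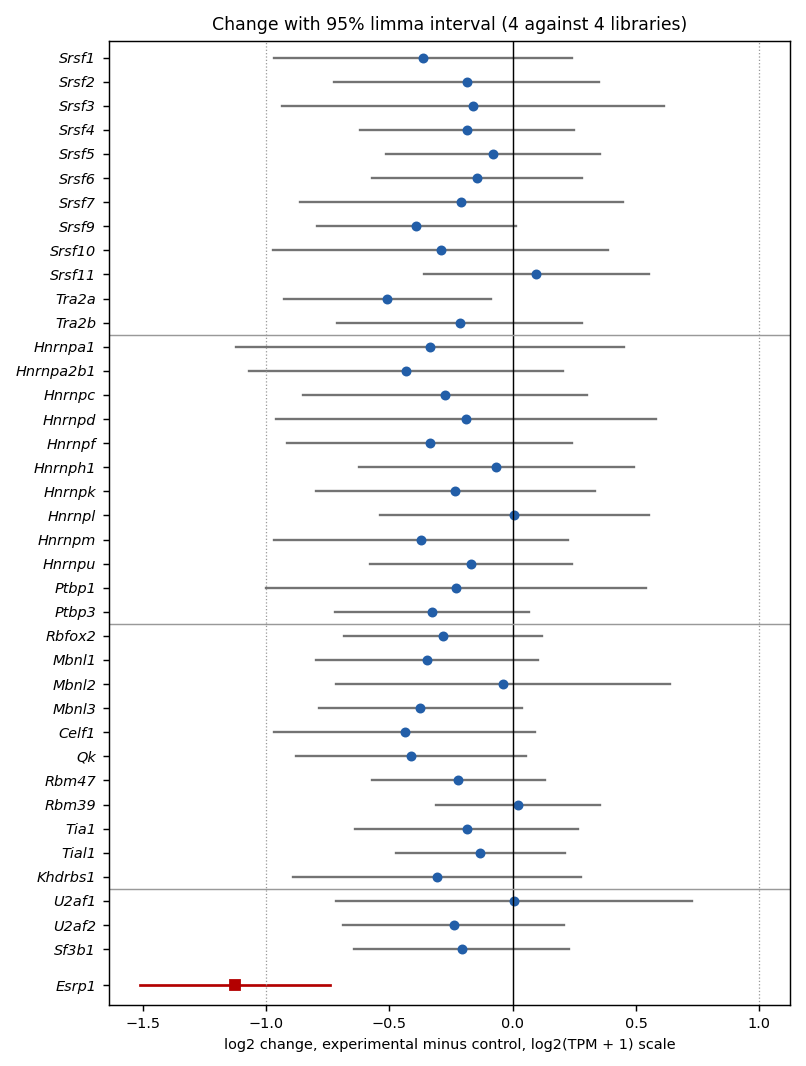
Log2 change (experimental minus control, on the log2(TPM + 1) scale) of each of the 38 members with its 95% limma interval, ordered by role, with Esrp1 below them in red. The intervals of 37 members include 0, that of Tra2a does not, and no member reaches the change of -1.13 seen for Esrp1.

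The SR and SR-like genes were expressed at means of 18.7 to 232 TPM, and 11 of 12 had log2 changes below 0 without passing the test. Srsf5, the most abundant of them, read 295, 243, 218 and 198 TPM across the controls and 224.7, 174, 268 and 236 TPM in experimental libraries. Control library 1 was the highest and experimental library 2 the lowest, and the other values interleaved. Srsf1, the founding SR protein, read 56.5, 43.5, 35.5 and 24.1 TPM across the controls and 27.5, 21.4, 32.4 and 39.1 TPM in experimental libraries. Its experimental values lay below control libraries 1 and 2 and around libraries 3 and 4 (log2 change -0.36, 95% interval -0.97 to 0.24, limma adjusted p = 0.519). Srsf3, the smallest SR protein and a regulator that also links splicing to RNA export, read 92.7, 72.1, 37.8 and 25.4 TPM across the controls and 42.4, 47.7, 46.5 and 43.9 TPM in experimental libraries. The experimental libraries sat in a narrow band in the middle of a 3.65-fold control range, the widest of any member.

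Srsf7, a close relative of Srsf3, read 83.3, 65.5, 51.1 and 28.4 TPM across the controls and 40.6, 42.4, 45.4 and 56.7 TPM in experimental libraries. Srsf10, an SR-like protein that represses splicing when dephosphorylated, read 32.1, 22.8, 20.2 and 9.97 TPM across the controls and 13.5, 13.7, 17.8 and 19.4 TPM in experimental libraries. For both genes every experimental value fell inside the control range. Srsf9 read 54.4, 45.2, 36.7 and 41.4 TPM across the controls and 39.9, 29.1, 29.4 and 35.96 TPM in experimental libraries, where 3 of the 4 experimental values lay under the lowest control (log2 change -0.39, SE 0.18, limma adjusted p = 0.311).

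Tra2a and Tra2b are paralogous activators that bind GA-rich exonic enhancers. Tra2a read 29.2, 23.8, 29.3 and 27.2 TPM across the controls and 15.2, 16.1, 20.8 and 24.9 TPM in experimental libraries, so that experimental library 4 alone lay inside the control range. Its means were 27.4 ± 2.58 and 19.3 ± 4.48 TPM (SD, n = 4 each). Its log2 change of -0.51 (95% interval -0.93 to -0.09, limma adjusted p = 0.201) was the largest of the 38 on the log2(TPM + 1) scale. By the ratio of the control to the experimental mean, Mbnl3 (1.57), Qk (1.45), Celf1 (1.44) and Hnrnpa2b1 (1.43) exceeded Tra2a (1.42). Tra2b read 36.6, 27.4, 22.5 and 19.2 TPM across the controls and 19.9, 17.96, 23.7 and 27.4 TPM in experimental libraries. The ratio of Tra2b to Tra2a, a measure chosen after the values were seen, was 1.25, 1.15, 0.766 and 0.707 in controls and 1.10 to 1.31 in experimental libraries, above the values of control libraries 3 and 4. Srsf11, which acts at 3′ splice sites, was the only SR or SR-like gene with a log2 change above 0. It read 44.8, 34.4, 46.3 and 35.6 TPM across the controls and 33.1, 59.1, 40.1 and 42.5 TPM in experimental libraries, with the top value in experimental library 2. The remaining SR genes had overlapping groups, with means of 120.0 ± 34.8 and 104 ± 20.3 TPM for Srsf2, 25.9 ± 6.74 and 22.2 ± 1.88 TPM for Srsf4 and 53.96 ± 12.7 and 47.9 ± 4.47 TPM for Srsf6 in the control and the experimental libraries (SD, n = 4 each).

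The hnRNP and PTB genes included the most abundant member, Hnrnpa2b1, and had the widest typical spread among controls, with a median ratio of highest to lowest control of 2.28. Hnrnpa2b1, which encodes an abundant nuclear binder of UAG-containing RNA, read 419.7, 310.3, 229 and 154 TPM across the controls and 195, 155, 203 and 224 TPM in experimental libraries. All 4 experimental values lay below control libraries 1, 2 and 3 and above library 4 (log2 change -0.43, 95% interval -1.07 to 0.20, limma adjusted p = 0.469). Hnrnpa1, its relative and a classic antagonist of SR proteins, read 260.1, 191, 91.9 and 78.3 TPM across the controls and 122, 90.0, 126 and 102 TPM in experimental libraries. Here the experimental values lay below control libraries 1 and 2 and mostly above 3 and 4. Hnrnpd, which encodes AUF1 and also acts in RNA decay, read 176, 131, 68.0 and 51.8 TPM across the controls and 91.0, 73.2, 96.6 and 75.0 TPM in experimental libraries. For this gene the 4 experimental values separated control libraries 1 and 2 from 3 and 4 completely.

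Hnrnpf, a binder of G-rich runs, read 272, 226, 163 and 120.5 TPM across the controls and 146, 115, 163 and 171 TPM in experimental libraries. Hnrnpk, which binds C-rich RNA, read 197, 163, 113 and 93.3 TPM across the controls and 120.1, 86.9, 125 and 135 TPM in experimental libraries. Experimental library 2 was the lowest of all 8 libraries for both. Hnrnpm, a factor known to work against ESRP on shared exons, read 125, 99.4, 79.0 and 54.4 TPM across the controls and 69.6, 46.5, 74.9 and 77.9 TPM in experimental libraries. All experimental values of Hnrnpm lay under control libraries 1, 2 and 3, and its log2 change of -0.37 had a 95% interval of -0.97 to 0.23 (limma adjusted p = 0.507). Hnrnpc, which binds uridine tracts, read 124, 96.9, 69.6 and 49.5 TPM across the controls and 64.3, 60.6, 70.3 and 70.1 TPM in experimental libraries. Its experimental values surrounded control library 3. Hnrnpl, a binder of CA repeats, had nearly equal group means of 121 ± 42.9 and 116 ± 8.202 TPM, and Hnrnph1 and Hnrnpu had 41.5 ± 12.9 and 38.9 ± 9.53 TPM, and 25.7 ± 5.44 and 22.4 ± 2.18 TPM (SD, n = 4 each).

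Ptbp1 and Ptbp3 are polypyrimidine tract binding paralogs that repress exons. Ptbp1 read 82.7, 71.3, 33.7 and 25.1 TPM across the controls and 44.8, 33.0, 43.9 and 40.5 TPM in experimental libraries (log2 change -0.23, 95% interval -1.001 to 0.54, limma adjusted p = 0.76). Ptbp3 went another way among controls, with 55.8, 54.2, 50.1 and 70.5 TPM, and read 47.2, 36.4, 52.2 and 47.5 TPM in experimental libraries. It was the only member with its highest control value in library 4. The ratio of Ptbp1 to Ptbp3, likewise chosen after the values were seen, was 1.48, 1.32, 0.672 and 0.356 in controls and between 0.842 and 0.948 in all 4 experimental libraries, inside the control range. The mean ratio was 0.957 ± 0.531 in controls and 0.888 ± 0.0499 in experimental libraries (SD, n = 4 each).

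**Figure D2:**
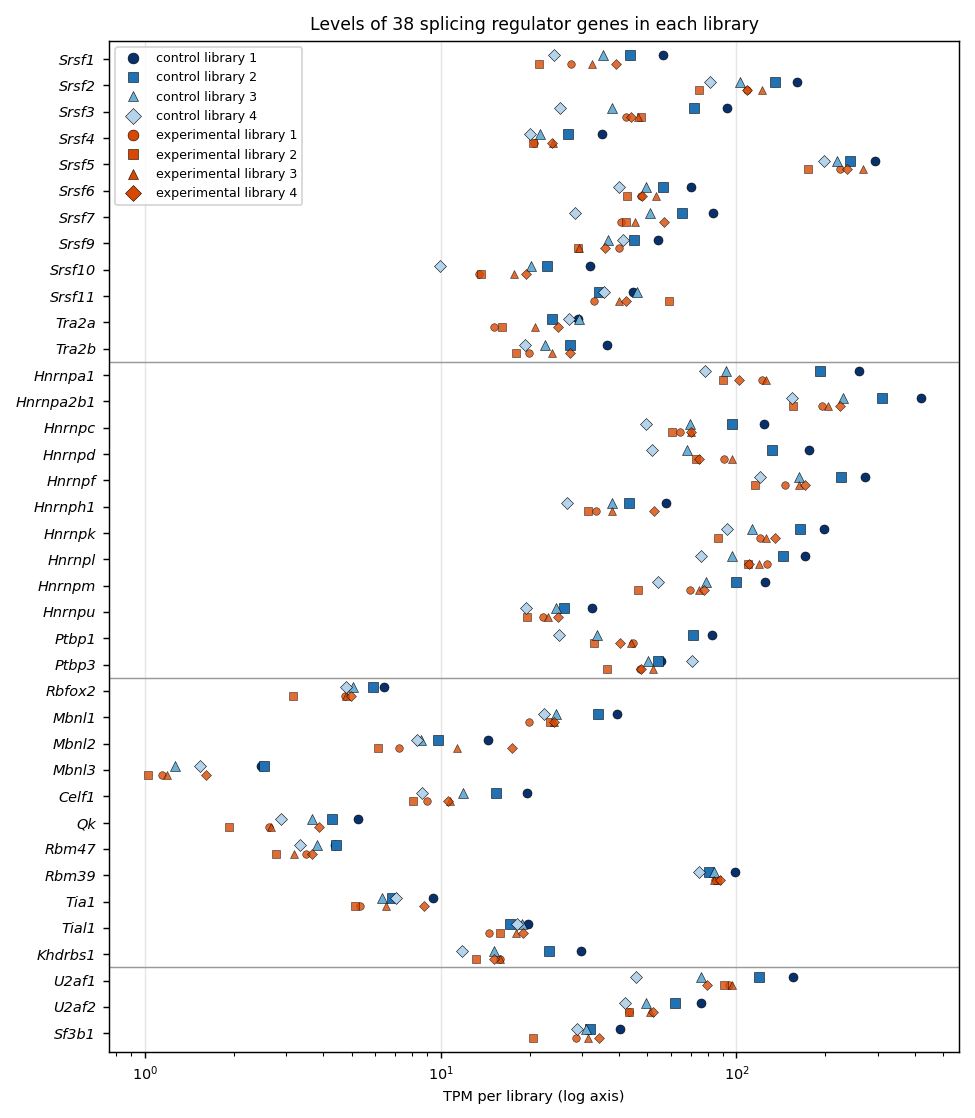
TPM of each member in each library on a log axis, controls in blue (upper row of each gene, library 1 darkest) and experimental libraries in orange (lower row), with lines between the 4 roles. Control library 1 is the highest of the controls for 33 of 38 members, and the groups overlap for all 38.

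Among the other sequence-specific regulators, levels were lower and 10 of 11 log2 changes were below 0, with none past the test. Celf1, which binds GU-rich RNA, read 19.6, 15.3, 11.9 and 8.64 TPM across the controls and 9.01, 8.09, 10.7 and 10.6 TPM in experimental libraries. The experimental values lay under control libraries 1, 2 and 3 and on both sides of library 4 (log2 change -0.44, 95% interval -0.97 to 0.09, limma adjusted p = 0.383). Khdrbs1, which encodes SAM68, read 29.8, 23.2, 15.1 and 11.8 TPM across the controls and 15.9, 13.2, 15.9 and 15.1 TPM in experimental libraries. Its experimental range was much narrower than its control range. Qk, which encodes quaking, read 5.24, 4.28, 3.67 and 2.89 TPM across the controls and 2.63, 1.93, 2.67 and 3.87 TPM in experimental libraries. Here 3 of 4 experimental values were below every control.

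Rbm47, an epithelial RNA-binding protein with a role in splicing and editing, was low, at 4.40, 4.43, 3.81 and 3.34 TPM across the controls and 3.51, 2.77, 3.198 and 3.66 TPM in experimental libraries. Rbfox2, which binds UGCAUG, read 6.46, 5.91, 5.05 and 4.78 TPM across the controls and 4.75, 3.17, 4.80 and 4.96 TPM in experimental libraries. Both genes had overlapping groups (limma adjusted p = 0.504 and 0.458). The muscleblind genes bind YGCY motifs and differed in level: Mbnl1 averaged 30.1 ± 8.04 and 22.9 ± 2.05 TPM, and Mbnl2 10.3 ± 2.87 and 10.5 ± 5.13 TPM, in the control and the experimental libraries (SD, n = 4 each). Mbnl3, the least abundant member, read 2.46, 2.52, 1.27 and 1.54 TPM across the controls and 1.15, 1.02, 1.19 and 1.61 TPM in experimental libraries, close to the floor of 1 TPM. A fold change on the log2(TPM + 1) scale understates changes at such low levels.

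Rbm39 and Tial1 had narrow ranges among controls. Rbm39, an SR-related coactivator that recruits U2AF, read 99.2, 80.8, 84.0 and 74.8 TPM across the controls and 84.3, 85.9, 84.2 and 87.7 TPM in experimental libraries, with a log2 change of 0.02 and a 95% interval of -0.31 to 0.35. Its 4 experimental values differed by 1.04-fold, the narrowest experimental range of the list, and Tial1 had the narrowest control range, 1.15-fold. Tial1 averaged 18.5 ± 1.11 and 16.9 ± 2.00 TPM and its paralog Tia1, likewise a binder of U-rich sequence beside 5′ splice sites, 7.41 ± 1.38 and 6.46 ± 1.69 TPM in the control and the experimental libraries (SD, n = 4 each).

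Genes of 3′ splice site recognition did not pass either. U2af1, the small U2AF subunit that contacts the AG at the intron end, read 155, 119, 76.1 and 45.8 TPM across the controls and 94.1, 90.4, 96.7 and 79.6 TPM in experimental libraries. The experimental values fell between control libraries 2 and 3, and the log2 change was 0.01 with a 95% interval of -0.72 to 0.73. U2af2, the large subunit that binds the polypyrimidine tract, read 76.0, 62.0, 49.4 and 42.2 TPM across the controls and 43.3, 43.5, 50.8 and 52.3 TPM in experimental libraries. Sf3b1, the branch site component of the U2 particle, averaged 33.0 ± 5.07 and 28.7 ± 5.93 TPM (SD, n = 4 each). The groups of all 3 genes overlapped.

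Mbnl1 was the one member of 38 with a row in the authors' deposited MAJIQ table, which lists junctions by PSI, the estimated usage of a junction among those that compete with it (background 1.81% of the 10682 genes tested had a junction at a posterior probability of at least 0.95). MAJIQ combined the libraries of each group, so no library's own PSI could be given. In the authors' deposited table the event is an alternative last exon on chromosome 3, plus strand, GRCm38. From the exon that ends at 60529804, the junction to the proximal last exon at 60546946 was used at a PSI of 0.237 in control and 0.024 in experimental pups. The junction to the distal exon at 60595594 stood at 0.763 and 0.976. The expected difference was 0.212 in size, with a posterior probability of 0.984 that it is at least 0.15. The size was small for that table: of 233 genes with a junction at a posterior probability of at least 0.95, 232 had a larger change than Mbnl1, and the median over genes was 0.371.

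In GENCODE M21 (GRCm38) the proximal exon spans 60546946 to 60547158, 213 bases, in 2 transcripts annotated as processed transcripts without a coding frame. Its joining to the exon end at 60529804 is not in that annotation, and the authors' deposited table marks the junction as absent from theirs. The distal exon, 60595594 to 60595764, is 171 bases long and belongs to 11 protein-coding transcripts. The sequences below show what each junction joins, with the last codon before the splice and the first in-frame stop in capitals, from the GENCODE M21 transcripts.
Upstream exon, last 60 bases, chr3:60529745-60529804: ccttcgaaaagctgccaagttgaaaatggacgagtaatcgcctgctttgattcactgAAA
Proximal exon, first 30 bases, chr3:60546946-60546975: aacTAGatctccaccccttcatccatgttt
Distal exon, chr3:60595594-60595764: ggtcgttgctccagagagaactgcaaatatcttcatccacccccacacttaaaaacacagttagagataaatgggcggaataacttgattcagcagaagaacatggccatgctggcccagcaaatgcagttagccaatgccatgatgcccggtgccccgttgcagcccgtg
The upstream exon holds the first 174 coding bases of the Mbnl1 coding transcript used as reference, a whole number of codons. Read on into the proximal exon, that frame meets TAG after 1 further codon, giving 59 codons before the stop, against 381 annotated codons in the reference transcript. No AATAAA or ATTAAA polyadenylation signal was found in the 213 bases (0 matches on the transcript strand). Whether a protein is made from the short form was not measured.

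The total level of Mbnl1 did not pass the test. It read 39.5, 34.0, 24.5 and 22.4 TPM across the controls and 19.9, 23.4, 24.2 and 24.2 TPM in experimental libraries. The experimental values lay under control libraries 1, 2 and 3 and around library 4 (log2 change -0.35, 95% interval -0.80 to 0.10, limma adjusted p = 0.413). Because PSI was given per group only, its spread over control libraries, which differed 1.76-fold in Mbnl1 level, is unknown.

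**Figure D3:**
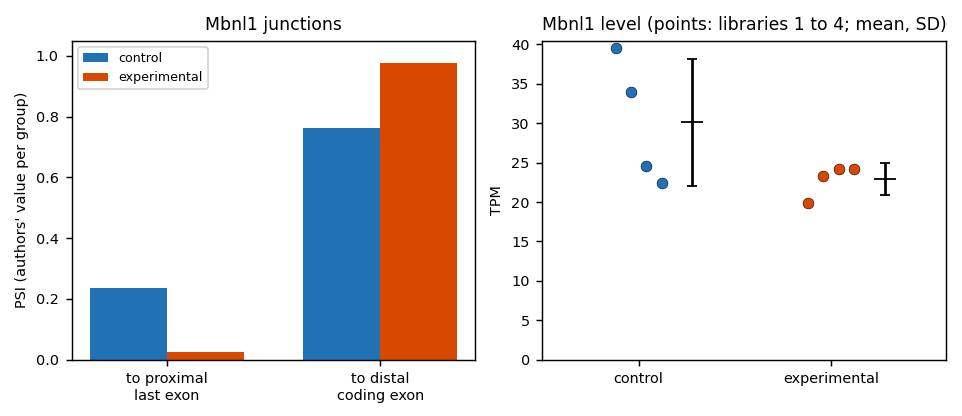
Left, PSI of the Mbnl1 junctions to the proximal last exon and the distal coding exon, as the authors' value per group without error. Right, Mbnl1 TPM in each library with mean and SD (n = 4 each). Proximal use is 0.237 in controls and 0.024 in experimental epidermis, while the levels overlap.

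The larger pattern in the members was a difference among the controls. It was not particular to the members, and the shares over all tested genes stand beside each value. The summed level of the 38 members was 3484, 2770.3, 2067 and 1651 TPM in control libraries 1 to 4 and 2051, 1738, 2221 and 2199.8 TPM in experimental libraries 1 to 4. The experimental sums lay under control libraries 1 and 2 and above library 4. Control library 1 was the highest control for 33 of 38 members (86.8%, beside 62.4% of all tested genes), and control library 4 was the lowest for 31 (81.6%, beside 56.8%). For 28 members (73.7%, beside 50.7%) all experimental values lay under both control libraries 1 and 2, and for 17 (44.7%, beside 36.6%) they all lay above library 4. The ratio of the highest to the lowest control had a median of 1.94 over members and 1.76 over all tested genes, and that among experimental libraries 1.42 and 1.52. Of the 12 hnRNP and PTB genes, 11 had their highest control in library 1 and their lowest in library 4.

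Markers of cell state differed among the same libraries. The 9 suprabasal keratinocyte genes, none of which passed in limma (3 at an unadjusted p under 0.05), summed to 80007 to 92321 TPM in controls and 100221 to 138032 TPM in experimental libraries, with none at 0. The 23 cell cycle genes summed to 461, 298, 112 and 50.9 TPM in control libraries 1 to 4 and 131 to 142 TPM in experimental libraries, with Bub1 listed at 0 in 6 libraries and Cenpe and Cenpf in 5 each. None of the 21 tested cell cycle genes passed. The 10 basal keratinocyte genes, of which 1 was lower and none higher in limma, summed to 8088, 6911, 2847 and 928 TPM across the controls and 1758 to 3018 TPM in experimental libraries, with none at 0. The 18 hair follicle genes ran in the other direction, from 7754 and 15682 TPM in control libraries 1 and 2 to 23425 and 56699 TPM in libraries 3 and 4, and 1877 to 13009 TPM in experimental libraries. None of the 18 passed in limma, but 11 had an unadjusted p under 0.05, beside 16.9% of all genes. All 18 log2 changes were below 0, with a median of -1.57. For 6 of the 18 the groups did not overlap, beside 12.6% of all genes. That also held for 3 of the 9 suprabasal, 2 of the 10 tested sebaceous gland and 1 of the 10 basal keratinocyte genes. Sebaceous gland genes had the most calls of the marker lists, 2 lower and none higher of 10 tested in limma (4 at an unadjusted p under 0.05, median log2 change -0.73), and summed to 2253, 2385, 1410.2 and 1613 TPM in controls and 2067 to 2388 TPM in experimental libraries, with Plin5 listed at 0 in all 8. Erythroid genes (none of 5 passed in limma) summed to 181, 9583, 1613 and 195 TPM in controls and 222 to 4178 TPM in experimental libraries, with none at 0. Fibroblast genes (none of 3 tested passed) summed to 126, 91.7, 55.7 and 25.1 TPM across the controls and 47.6 to 69.1 TPM in experimental libraries, with Lum and Pdgfra listed at 0 in all 8 and Col1a1 in 7. Langerhans cell and macrophage genes (none of 9 passed) summed to 787, 791, 454 and 210 TPM across the controls and 282 to 568 TPM in experimental libraries, with Lyz2 and Adgre1 at 0 in 3 libraries. None of 7 melanocyte and 3 tested T cell genes passed in limma. Melanocyte genes summed to 150, 60.4, 72.5 and 64.0 TPM across the controls and 34.9 to 83.8 TPM in experimental libraries. T cell genes summed to 27.1, 28.3, 14.4 and 1.84 TPM across the controls and 6.64 to 26.2 TPM in experimental libraries. Sox10 was at 0 in 1 library, and Cd3d and Cd2 in 4 each. The part of these cell states and cell types in the levels of the members was not tested. Experimental library 2 was the lowest experimental library for 28 of 38 members (73.7%, beside 62.4% of all tested genes), and its higher mitochondrial share was likewise not tested as a part of that.

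**Figure D4:**
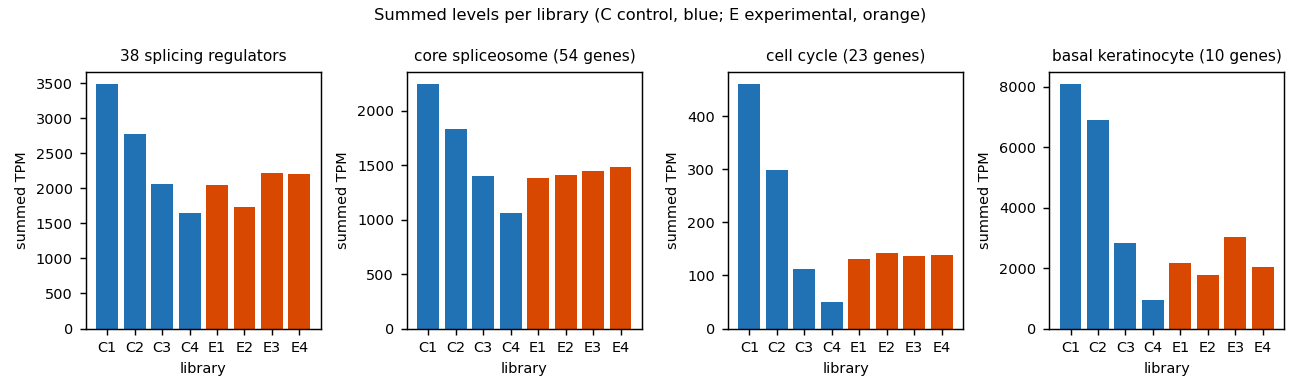
Summed TPM per library (C1 to C4 controls in blue, E1 to E4 experimental in orange; bars start at 0) of the 38 members, 54 core spliceosome genes, 23 cell cycle genes and 10 basal keratinocyte genes. In each panel C1 and C2 are the highest bars, C4 is the lowest, and the experimental bars lie between C4 and C2.

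The promoters of the members with the widest and the narrowest control range are shown to set these extremes side by side, chosen after the values were seen among members with a single RefSeq start (GRCm38.p6, 250 bases before the start, gene strand). Capitals mark matches on either strand to GGGCGG (SP/KLF), CCGGAAG (ETS), CCAAT (NF-Y), GCATGCGC (NRF1) or GGCGGGA (E2F), of which the first and last can overlap.
Srsf3, plus strand, chr17:29032410-29032659: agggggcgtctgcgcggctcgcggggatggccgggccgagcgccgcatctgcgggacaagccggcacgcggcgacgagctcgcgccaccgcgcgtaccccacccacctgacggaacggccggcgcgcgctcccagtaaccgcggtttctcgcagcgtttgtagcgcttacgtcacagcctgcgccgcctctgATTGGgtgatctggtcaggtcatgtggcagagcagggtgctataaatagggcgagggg
Tra2a, minus strand, chr6:49264053-49264302: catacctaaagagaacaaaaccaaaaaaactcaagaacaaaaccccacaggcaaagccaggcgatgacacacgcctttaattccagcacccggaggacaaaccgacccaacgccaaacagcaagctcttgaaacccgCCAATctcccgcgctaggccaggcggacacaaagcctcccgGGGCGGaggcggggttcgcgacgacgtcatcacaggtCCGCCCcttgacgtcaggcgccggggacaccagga
Srsf3, with a 3.65-fold control range, held 1 CCAAT match, and Tra2a, with a 1.23-fold range, held 1 CCAAT and 2 GGGCGG matches. RefSeq entries were found for 34 of 38 members, in 51 windows. GGGCGG was in 66.7% of those windows and 32.7% of all 32851 windows, CCAAT in 41.2% and 33.8%, GGCGGGA in 39.2% and 9.75%, CCGGAAG in 17.6% and 6.91%, and GCATGCGC in 5.88% and 2.26%. By gene, 25 of the 34 members had GGGCGG in at least 1 window, 16 CCAAT, 12 GGCGGGA, 6 CCGGAAG and 3 GCATGCGC. Windows of the same gene are not independent. The 32851 windows were not limited to genes that passed the filter, as all members did, so the shares are not particular to splicing regulators by this comparison. A match describes letters in a window and shows no binding.

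Whether splicing regulators were called depended on which controls entered. Without control libraries 3 and 4, 17 of 38 members were lower and none higher (limma adjusted p under 0.05, background 22% of 10713 genes lower and 2.25% higher, together 24.2%). The 17 were Hnrnpa1, Ptbp1, Hnrnpa2b1, Hnrnpd, Srsf3, Celf1, Khdrbs1, Hnrnpm, Hnrnpf, Srsf10, Hnrnpc, Srsf7, Mbnl1, Mbnl3, Hnrnpk, U2af1 and U2af2. In that fit the log2 change of Hnrnpa1 was -1.03 (SE 0.19, limma adjusted p = 0.0104) and that of Ptbp1 -0.92 (SE 0.17, limma adjusted p = 0.00957). Without control libraries 1 and 2, no member was called (limma adjusted p under 0.05, background 1.95% of 10486 genes higher and 3.24% lower, together 5.19%). In that fit 5 members had an unadjusted p under 0.05 in limma, beside 22.1% of all genes. The median log2 change of the members was 0.07. U2af1 and Srsf3 then had log2 changes of 0.60 and 0.53 (limma adjusted p = 0.157 and 0.159). Neither set of controls is marked by the labels as the better one. The expression values are by name not corrected for batch, and the labels name no batch. The part of a batch in the differences among the controls was not tested. Control libraries 1 and 2 had the higher summed levels of the members, and 3 and 4 the lower. Both splits therefore follow the values that the fits then compare, and their calls are no separate support for a change. limma's library weights were 1.07, 7.43, 0.44 and 0.154 for control libraries 1 to 4. With them 20 members were lower (limma adjusted p under 0.05, background 34.4% of 10682 genes lower and 7% higher, together 41.4%). The weights were estimated from the same values and made the control group rest mostly on control library 2. These calls are likewise no separate support for a change.

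Changes of the members relative to each other did not pass the test either. With each library centred on the median of the 38 members, a scaling chosen after seeing the data, no member passed (limma, background 1.07% of genes higher and 0.655% lower, together 1.72%). In that fit 2 members had an unadjusted p under 0.05 in limma, beside 14.5% of all genes. The lowest p was that of Celf1, at a log2 change of -0.33 (95% interval -0.57 to -0.10, limma adjusted p = 0.173), followed by Qk at -0.31 (limma adjusted p = 0.308). The changes ran from -0.40 for Tra2a (95% interval -0.91 to 0.11, limma adjusted p = 0.461) to 0.20 for Srsf11 (95% interval -0.41 to 0.81, limma adjusted p = 0.772), and Hnrnpa2b1 stood at -0.33. Intervals of this width do not show that the members kept their proportions. This scaling moved the median of all genes from -0.18 to -0.07, and centring each library on the median of all its genes moved it to 0.03. With that centring no member passed (limma, 0 at an unadjusted p under 0.05, beside 18.4% of all genes). Over all genes 2.65% were called higher and 0.955% lower, together 3.6%, so 283 genes higher and 102 lower in place of 98 and 165. Quantile normalization gave 0 member calls (limma, background 2.52% higher and 1.1% lower, together 3.61%), and so did leaving out experimental libraries 2 and 4 (limma, background 0.13% higher and 0.00929% lower, together 0.139%). At an unadjusted p under 0.05 in limma there were 0 members, beside 18.3% of all genes, with quantile normalization. Without experimental libraries 2 and 4 there was 1 member, beside 9.1% of all genes. Leaving out control library 4 alone gave 0 member calls (limma, background 1.47% higher and 3.91% lower). In that fit 13 of the 38 members had an unadjusted p under 0.05, beside 27.2% of all genes. Their lowest limma adjusted p was 0.097.

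**Figure D5:**
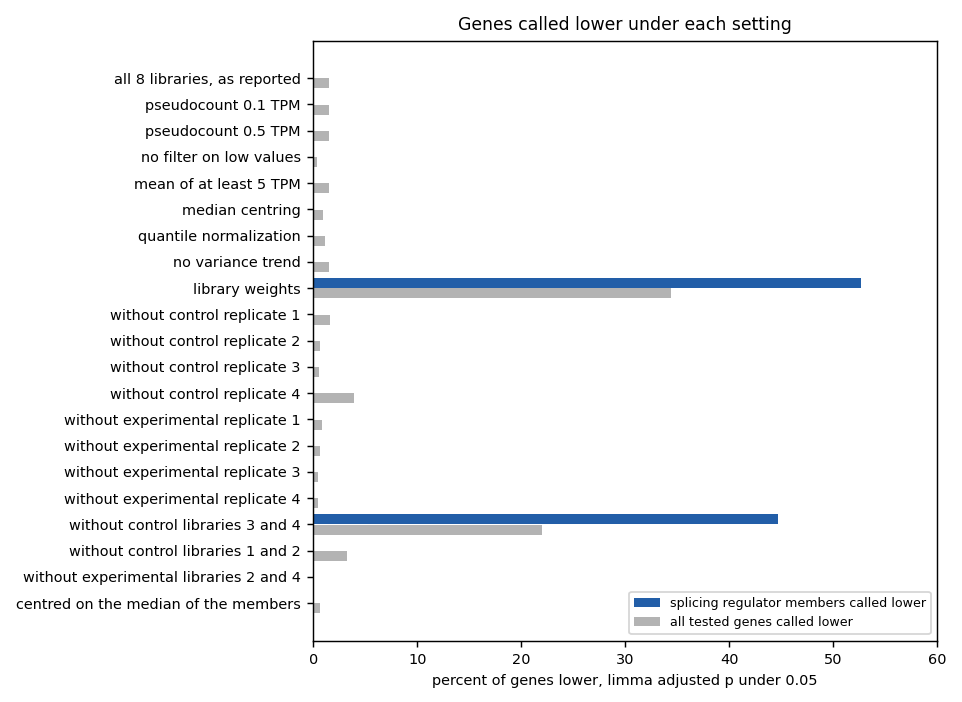
Percent of the 38 members (34 with the filter at 5 TPM; blue) and of all tested genes (grey) called lower at limma adjusted p under 0.05, for the fit on all 8 libraries and each alternative. Members are called lower only with library weights, 20 of 38, and without control libraries 3 and 4, 17 of 38, where many other genes are called too.

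The rest of the splicing machinery gave no calls. Over all genes tested, 16.9% had an unadjusted p under 0.05 in limma, and the groups did not overlap for 12.6%. They did not overlap for 0 of 15 SR kinase and SR-related genes and 1 of 37 other hnRNP and RNA-binding genes. Among 15 tested SR kinases and SR-related genes 0 passed (limma, 1 at an unadjusted p under 0.05, median log2 change -0.12). Clk3, a kinase that phosphorylates SR proteins, was the one of lowest p, and read 31.6, 41.2, 95.9 and 89.8 TPM across the controls and 30.3, 20.8, 26.3 and 37.9 TPM in experimental libraries. Control libraries 3 and 4 were the high ones for Clk3, opposite to most members, and its log2 change was -1.02 (SE 0.36, limma adjusted p = 0.178). Clk2 averaged 9.36 ± 1.25 and 6.85 ± 1.55 TPM (SD, n = 4 each). Among 37 tested hnRNP and RNA-binding genes outside the list 0 passed (limma, 2 at an unadjusted p under 0.05, median -0.25). Of these, Tardbp, which encodes TDP-43, read 99.6, 78.8, 85.2 and 76.0 TPM across the controls and 59.6, 49.3, 68.4 and 74.7 TPM in experimental libraries, with groups that did not overlap (log2 change -0.43, limma adjusted p = 0.249), and Pspc1, a paraspeckle protein gene, averaged 5.52 ± 1.38 and 3.64 ± 0.863 TPM (SD, n = 4 each).

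Among 54 core spliceosome genes 0 passed (limma, 0 at an unadjusted p under 0.05, median -0.15), and their sum was 2246, 1829, 1405 and 1060.1 TPM across the controls and 1380 to 1485 TPM in experimental libraries, while the authors' deposited table of lower genes held none of them. Crnkl1 averaged 10.4 ± 1.6003 and 7.89 ± 1.16 TPM, with groups that did not overlap (limma adjusted p = 0.349), and Cdc40, a step 2 factor, 7.25 ± 1.10 and 5.47 ± 1.10 TPM (SD, n = 4 each). Crnkl1 was the 1 of the 54 without overlap, beside 12.6% of all genes tested. Among 19 exon junction and nonsense-mediated decay genes 0 passed (limma, 1 at an unadjusted p under 0.05, median -0.17). The groups did not overlap for 2 of these 19. Upf2, a core decay factor, read 22.7, 20.0, 17.8 and 19.8 TPM across the controls and 11.9, 15.8, 16.4 and 14.3 TPM in experimental libraries, with groups that did not overlap (log2 change -0.44, limma adjusted p = 0.209), and Smg9 averaged 5.00 ± 1.07 and 3.64 ± 0.152 TPM (SD, n = 4 each), also without overlap (limma adjusted p = 0.332). None of the 138 genes on these 4 lists had a row in the authors' deposited MAJIQ table, and 1, Khdrbs3, a paralog of Khdrbs1, was in the authors' deposited table of lower genes (log2 fold change -2.07, SE 0.50, adjusted p = 0.00111). In the expression table Khdrbs3 read 3.00, 2.31, 1.02 and 0 TPM across the controls and was listed at 0 in all 4 experimental libraries, and its mean was under the filter.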

How the data were processed

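Epidermal RNA was sequenced from 4 control and 4 experimental pups. Tools listed in the submitters' processing notes are STAR, DESeq, Salmon 0.14.0 and SAMtools 1.9, with genome builds mm10 and GRCm38. The sources used here do not say which step each one served. Expression was deposited as log2 values of TPM, named as without batch correction. In a check against the mean normalized count signal in the authors' deposited comparison over 401 genes, counts per kilobase over TPM in the lowest of 4 level bins were 0.991 times those in the highest when values were read as log2 TPM, and 1.43 times when read as log2(TPM + 1). The first reading was used, and entries not above 1 TPM appear as 0. The authors' deposited comparison, which per the file headers holds log2 fold changes, scores named stat, p-values and adjusted p-values, has only rows with fold changes below 0. The deposited MAJIQ table gives PSI as a fraction per group and a posterior probability score.

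Columns carry a group but no replicate number of the labels, so libraries 1 to 4 are named in table order and were not paired. Values were set to at least 1 TPM and transformed as log2(TPM + 1), where a fold change understates that of low genes. The planned design had assumed log2(TPM + 1) values. limma 3.58.1 (R 4.3.3; eBayes with trend, group as the only term, two-sided, Benjamini-Hochberg over 10682 genes with a mean of at least 1 TPM, threshold 0.05) was tested on simulated data. The simulated noise was independent for each gene. It lacked the differences shared by many genes among the control libraries, so the simulation does not show how the fit behaves with them. p-values measure the spread between these libraries only. Of 21690 identifiers 21662 matched a symbol. Further work used Python 3.11.15, pandas 2.3.3, numpy 2.4.6 and matplotlib 3.10.9. The members and lists were chosen with earlier results of these data known. All 38 members were described; values in every library were given for members past the threshold under any setting, with a splicing entry or at the extremes of level, and for some others chosen after their values were seen. From other lists the 2 genes of lowest p were named. Alternatives used a pseudocount of 0.1 or 0.5 TPM, no filter on low values, a filter at 5 TPM, centring, quantile normalization, no trend, library weights and leaving out libraries.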

Additional observations from a re-analysis of the deposited data

Results flagged for a closer look

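Among 76 groups of 4 libraries (38 members, control and experimental), 1 held a library far from the other 3, and chance flags about 1 in 20 such groups. Rbfox2 read 3.17 TPM in experimental library 2, against 4.75 to 4.96 TPM in the other experimental libraries. Experimental library 2 was also one of the pair with a higher mitochondrial share, and the part of that share in the low value was not tested. Esrp1 read 162 TPM in control library 4, against 131 to 135 TPM in the other controls, while that library was the lowest control for 31 of 38 members.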

How the results depend on the processing

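No paired analysis was possible because the columns carry no replicate numbers of the labels. The number of members called higher was 0 under all 20 alternatives, and the number called lower was 0 under 18 of them, the exceptions being library weights (20) and leaving out control libraries 3 and 4 (17). Over all genes the count of 263 was 119 with no filter, 4423 with library weights, 2595 without control libraries 3 and 4, 544 without control libraries 1 and 2, 15 without experimental libraries 2 and 4, and 85 (without experimental library 3) to 578 (without control library 4) with 1 library left out. It was 91 to 140 without control library 2 or 3 or experimental library 1, 2 or 4. Library weights called 41.4% of all genes. Among the lists they called 2 of 15 SR kinase and SR-related genes and 18 of 37 other hnRNP and RNA-binding genes. They also called 26 of 54 core spliceosome genes and 5 of 19 exon junction and decay genes. Without control libraries 3 and 4 the numbers called on these lists, in the same order, were 0, 18, 19 and 4, beside 24.2% of all genes. Without control libraries 1 and 2, 1 SR kinase or SR-related gene was called, beside 5.19% of all genes. At a posterior probability of at least 0.99, 0 members had a changed junction, and at 0.9, or with a change of at least 0.2, Mbnl1 remained.

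Of 756 log2 changes of members over these alternatives, 76 had the opposite sign to the reported value, which itself did not pass for any member. The changes with opposite sign were, without control libraries 1 and 2, Srsf1 0.0062, Srsf2 0.15, Srsf3 0.53, Srsf4 0.0846, Srsf5 0.10, Srsf6 0.10, Srsf7 0.26, Srsf10 0.15, Tra2b 0.0768, Hnrnpa1 0.36, Hnrnpa2b1 0.0351, Hnrnpc 0.17, Hnrnpd 0.48, Hnrnpf 0.0728, Hnrnph1 0.25, Hnrnpk 0.17, Hnrnpm 0.0077, Hnrnpu 0.0329, Ptbp1 0.46, Mbnl2 0.18, Khdrbs1 0.16, U2af2 0.0506; with median centring, Srsf2 0.0253, Srsf3 0.053, Srsf4 0.0276, Srsf5 0.13, Srsf6 0.0678, Srsf7 0.0049, Hnrnpd 0.0234, Hnrnph1 0.15, Hnrnpu 0.0429, Mbnl2 0.17, Tia1 0.0264, Tial1 0.0817, Sf3b1 0.0056; with quantile normalization, Srsf5 0.0269, Srsf6 0.0076, Hnrnph1 0.0888, Mbnl2 0.19, Rbm47 0.0154, Tia1 0.0571, Tial1 0.0728. Without experimental libraries 2 and 4 they were Srsf5 0.0567, Srsf11 -0.13, Rbm39 -0.0001, centred on the members Srsf5 0.0258, Hnrnph1 0.0401, Mbnl2 0.0663, with library weights Hnrnpl -0.26, Mbnl2 0.0458, U2af1 -0.36, and without control libraries 3 and 4 Hnrnpl -0.42, Rbm39 -0.0659, U2af1 -0.59. Leaving out 1 library gave ranges of -0.48 to 0.13 for Srsf3, -0.17 to 0.0377 for Srsf5, -0.50 to 0.0052 for Srsf7, -0.0574 to 0.22 for Srsf11, -0.48 to 0.10 for Hnrnpd, -0.25 to 0.11 for Hnrnph1, -0.19 to 0.19 for Hnrnpl, -0.53 to 0.0339 for Ptbp1, -0.30 to 0.16 for Mbnl2, -0.0354 to 0.0992 for Rbm39, -0.31 to 0.27 for U2af1. The cause was not tested. Esrp1 passed in 18 of 20 alternatives, all but leaving out experimental libraries 2 and 4 and centring on the members (log2 change -1.21 to -0.91, limma adjusted p = 0.000211 to 0.154). Depth is unknown, and TPM of low members such as Mbnl3 lies near the 1 TPM floor.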
